A study of Arabidopsis thaliana with 10 samples.

Results

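The UGT genes of Arabidopsis thaliana encode UDP-dependent glycosyltransferases, enzymes that move a sugar from a UDP-sugar donor onto a small molecule such as a flavonoid, a phenolic acid or a hormone. The sugar makes the acceptor more soluble, often inactivates it and marks it for transport or storage in the vacuole. In flowers the family is best known for colouring tissues through anthocyanins, for loading pollen with flavonol glycosides and for trimming hormone levels. The members described here were chosen by name: a probe set had to be annotated to exactly 1 gene whose symbol is UGT followed by a family number, a letter and a member number. This gave 47 of the 13349 genes named by single-gene probe sets, each with 1 probe set, among 22745 probe sets tested. A further 3 probe sets named a UGT together with another gene, UGT73B2 with UGT73B3 among them, and were not used. By the usual phylogenetic groups of the family, 14 genes belonged to group E, 8 to group L, 8 to group H, 7 to group D, 5 to group G, 3 to group F and 1 to group J, and UGT80B1, a sterol glucosyltransferase, lay outside them. The role of 21 genes is in none of the lists used here.

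The samples were whole pistils and ovules of plants of ecotype Columbia, in 5 groups of 2 arrays: unpollinated pistils, pistils at 0.5 HAP (hours after pollination), at 3.5 HAP and at 8 HAP, and ovules before fertilisation. All flowers were emasculated 24 hours before the time of pollination. Time since emasculation thus rose together with time after pollination, and the unpollinated pistils were a single group. The effects of these times cannot be told apart. A pistil array was made from a pool of 20 pistils taken from at least 10 plants, and an ovule array from about 1500 ovules of 50 unpollinated pistils and about 30 plants. Pollinated pistils were measured together with their pollen and pollen tubes, so pistil RNA and pollen RNA cannot be told apart, and in any of these bulk samples fewer cells of a type and less RNA per cell cannot be told apart either.

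Values are linear array intensities as the authors deposited them. Differences were taken as log2(value + 16) and tested with limma over all 22745 probe sets, with a Benjamini-Hochberg adjusted p of 0.05 as the threshold. A level of 127.2, set from 27 probe sets for bacterial transcripts, was taken as the background level. Where the lower of the compared means is at or under it, the size of the fold is uncertain. The replicate arrays of unpollinated pistils differed by an SD of 0.23 on the log2 scale over all probe sets, against 0.125 to 0.151 in the pollinated groups and 0.202 in ovules, while the fit used a single spread per probe set. Unpollinated replicate 2 stood apart in its log2 ratio of 3' to 5' actin control (2.96, against 1.93 to 2.55 on the other 9 arrays), and calls lost without it are named beside the gene. Of 12 pollen markers, 9 were measured under a name: 8 rose at 0.5 HAP, 9 at 3.5 HAP and 9 at 8 HAP, and no group mean was at 0. Their summed intensity per array was 1356 and 1555 in unpollinated pistils and 1288 and 1078 in ovules, but 8077 and 7819 after 0.5 hours, 12292 and 13074 after 3.5 hours and 14059 and 14190.2 after 8 hours. The part of pollen RNA in the UGT rises below was not tested.

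Many of the 47 genes were dim. The mean intensity of 22 of them (46.8%) stayed at background level in all 5 groups, against 23.8% of all probe sets, and 18 were above it in every group. Their highest group mean was in unpollinated pistils for 11 genes, at 0.5 HAP for 7, at 3.5 HAP for 13, at 8 HAP for 11 and in ovules for 5. Over all probe sets the same shares were 18.8%, 12.7%, 9.76%, 18.7% and 40%. Both tallies include probe sets at background level in all 5 groups, among them 22 of the 47 genes, whose highest group is uncertain. Across the 4 pistil groups 26 of 47 genes varied by limma's F test, or 55.3%, beside 52.6% of all probe sets.

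**Figure D1:**
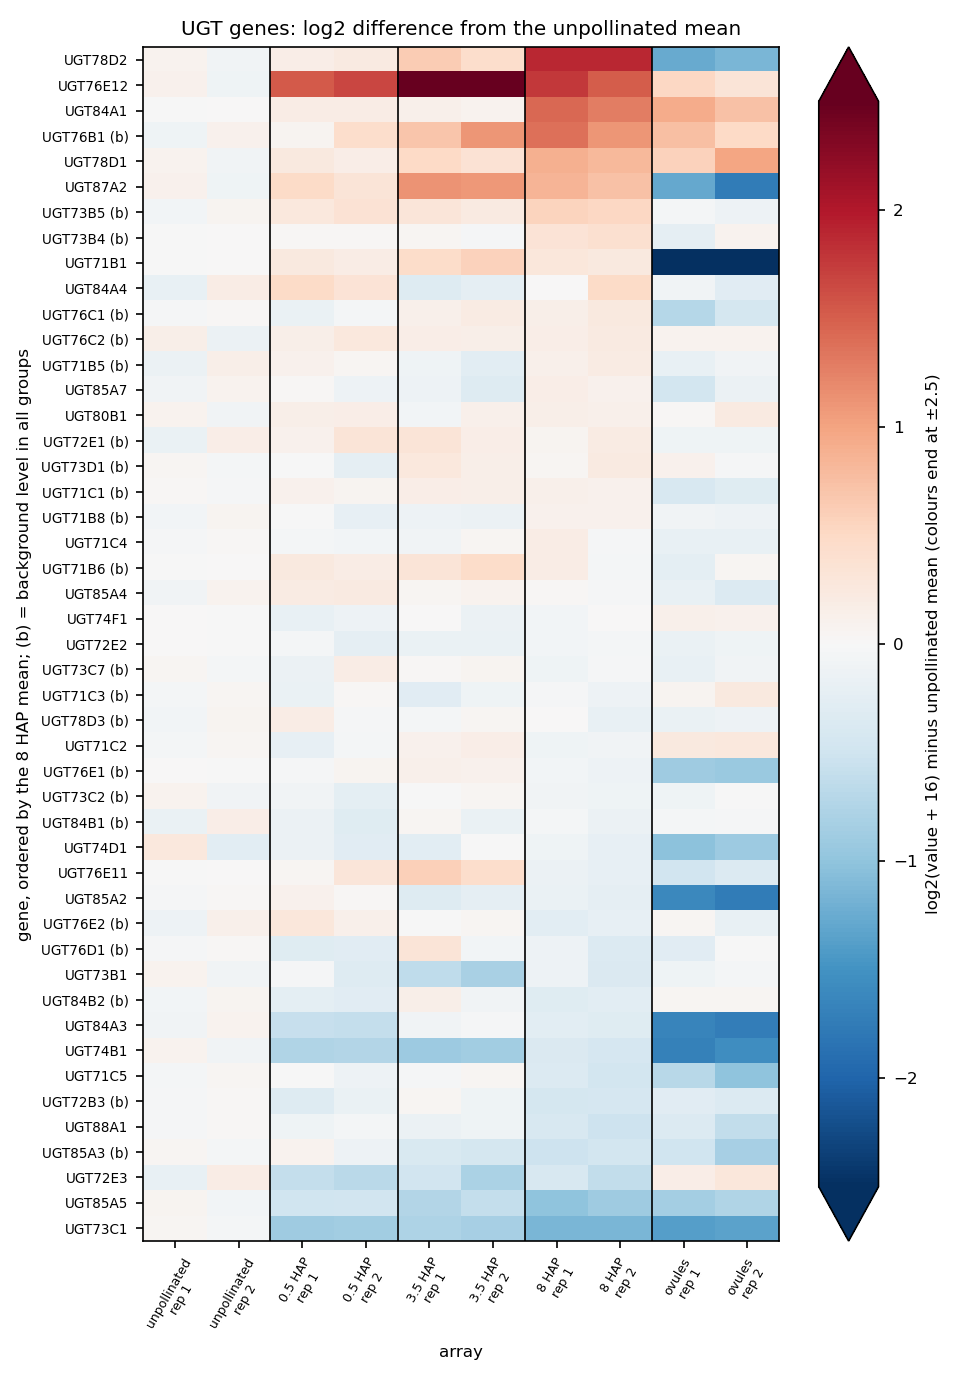
Each row is 1 of the 47 UGT genes and each column 1 array. Colour gives log2(value + 16) minus the mean of both unpollinated arrays, with (b) marking genes at background level in all groups. UGT78D2 at 8 HAP, UGT76E12 at 3.5 HAP and UGT71B1 in ovules carry the deepest colours, and most rows stay pale.

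Against unpollinated pistils, 8 UGT genes changed at 0.5 HAP (17.0%, beside 30.2% of all probe sets), with 3 up and 5 down (15.5% and 14.7% of all probe sets). At 3.5 HAP 16 changed (34.0%, beside 29.9%), with 9 up and 7 down (12.9% and 17%). At 8 HAP 19 changed (40.4%, beside 38.5%), with 9 up and 10 down (19.7% and 18.8%). With arrays centred on 4 reference genes the splits were 11 up and 5 down at 0.5 HAP and 14 up and 5 down at 8 HAP; the share at 0.5 HAP was then 34.0%, beside 32.1% of all probe sets. This scaling moved the median log2 difference of all probe sets from -0.020 to 0.092 and from -0.012 to 0.130. These 3 comparisons share the unpollinated arrays. At 8 HAP 3 of 6 measured stigma, style and transmitting tract markers were lower, CES (log2 -2.16), the SLR1 homologue (log2 -2.19) and SPT (log2 -0.76). The 2 that were higher were ARPN (log2 1.002) and NGA1 (log2 0.36). Of 3 measured embryo sac markers EC1.2 (log2 -1.38) and EC1.5 (log2 -0.87) were lower and AGL62 (log2 0.66, within the background level) higher. The summed intensity of the stigma list was 4469 and 4048 in unpollinated pistils and 3593 and 3835 at 8 HAP. Between these it was higher, at 8041.7 and 7999.96 at 0.5 HAP and 8289 and 7217 at 3.5 HAP. The sum of the embryo sac list was 521 and 603 in unpollinated pistils against 296 and 287 at 8 HAP. The part of these tissues in the UGT falls at 8 HAP was not tested. The median log2 difference of the 47 genes was -0.01 at 0.5 HAP, 0.02 at 3.5 HAP and -0.06 at 8 HAP, beside -0.02, -0.07 and -0.01 for all probe sets. Changes were mostly small: at least 2-fold rises numbered 1 at 0.5 HAP (2.01% of all probe sets), 2 at 3.5 HAP (2.22%) and 4 at 8 HAP (2.9%), and falls of that size numbered 0 (1.01%), 0 (1.08%) and 1 (1.65%).

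Calls followed several courses. UGT73B5, UGT76E12 and UGT87A2 rose at all 3 times, as did 6.26% of all probe sets, and UGT72E3, UGT73C1, UGT74B1 and UGT85A5 fell at all 3, as did 7.25% of all probe sets. UGT71B1, UGT76B1, UGT78D1 and UGT78D2 rose at 3.5 and 8 HAP, a pattern held by 2.12% of all probe sets. Of these genes UGT73B5 and UGT76B1 rose within the background level. Single calls of UGT71B1, UGT72E3, UGT74B1, UGT78D1 and UGT87A2 in these patterns were lost with other settings or without an array, as given with each gene below. No gene was called higher at one time and lower at another, and 24 of 47 were called at none of the 3 times, as were 45.2% of all probe sets.

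**Figure D2:**
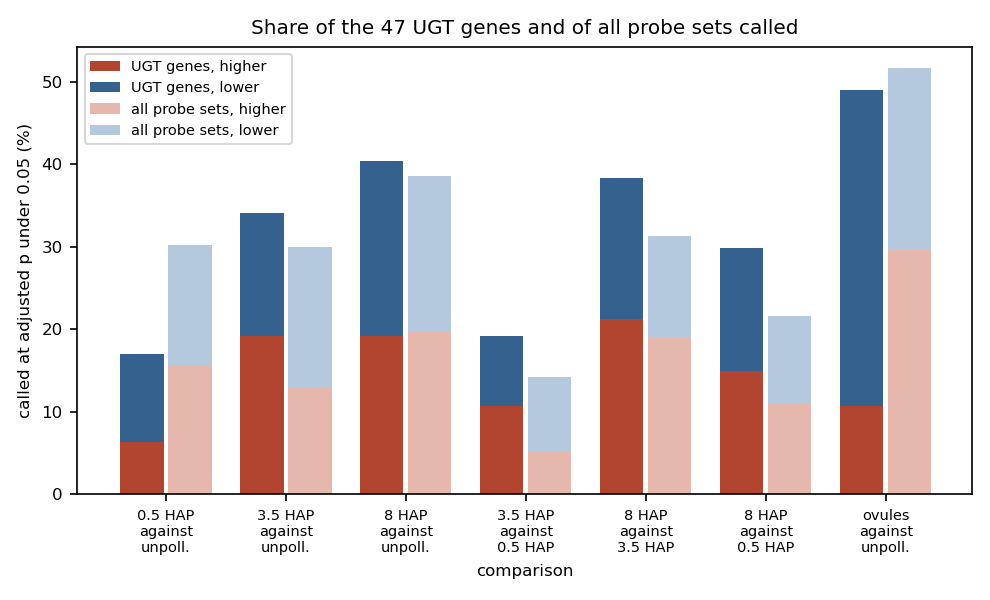
Stacked bars give the percentage called at an adjusted p under 0.05 in each comparison, higher in red and lower in blue, for the 47 UGT genes (dark) and all 22745 probe sets (pale). The UGT share lies below that of all probe sets at 0.5 HAP against unpollinated pistils (17.0% and 30.2%) as deposited, though not with reference gene centring (34.0% and 32.1%). In ovules the lower calls make up 18 of 23, and 5 of these 18 have both means at background level.

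The largest rise among the 47 genes at 8 HAP was that of a flavonoid gene. UGT78D2 (AT5G17050), which puts glucose on the 3-hydroxyl of flavonols and anthocyanidins, read 382 and 338 on the unpollinated arrays, 407 and 421 after 0.5 hours, 570.2 and 494 after 3.5 hours, 1372 and 1371 after 8 hours and 139.8 and 154 in ovules. Both 8 HAP arrays stood above every other array, and both ovule arrays lay below every other one. UGT78D2 rose 1.46-fold at 3.5 HAP (adjusted p = 0.00178) and 3.70-fold at 8 HAP (log2 1.89, SE 0.098, adjusted p = 1.01e-07), and from 3.5 to 8 HAP it rose 2.54-fold (adjusted p = 1.35e-05). Its smaller step from 0.5 to 3.5 HAP (log2 0.35, adjusted p = 0.0383) was lost without any 1 of the 6 pollinated arrays (adjusted p = 0.0543 to 0.27), with the replicate block (adjusted p = 0.055) and with reference gene centring (adjusted p = 0.0672). At 0.5 HAP its log2 difference was 0.20 (95% interval -0.02 to 0.41, adjusted p = 0.155).

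UGT78D1 (AT1G30530), the flavonol 3-O-rhamnosyltransferase, read 1514 and 1353 in unpollinated pistils, 1699 and 1599 after 0.5 hours, 2036 and 1831 after 3.5 hours, 2659 and 2515 after 8 hours, and 2133 and 2834 in ovules. The pistil groups did not overlap from one to the next, and the ovule arrays spread around the 8 HAP level. For UGT78D1 the steps from unpollinated pistils to 0.5 HAP (log2 0.20, adjusted p = 0.237) and from 0.5 to 3.5 HAP were not called. It rose 1.80-fold at 8 HAP (log2 0.85, SE 0.121, adjusted p = 0.000258) and 1.35-fold at 3.5 HAP (adjusted p = 0.0216), the latter lost without unpollinated replicate 2 or 3.5 HAP replicate 1 (adjusted p = 0.11 and 0.142). In ovules it was 1.71-fold higher than in unpollinated pistils (adjusted p = 0.000243), while UGT78D2 was 2.31-fold lower there (adjusted p = 1.29e-06). UGT78D3, the flavonol arabinosyltransferase, is the nearest of the 47 genes to UGT78D2 in the gene table. It stayed at background level, with group means between 28.7 and 36.6. Of the 8 genes listed for flavonoids these 3 were measured under a UGT symbol.

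The wider flavonoid pathway was covered thinly, with 3 of 26 listed genes measured under a name. DFR, which makes the leucoanthocyanidin precursors of anthocyanins, AT5MAT, which adds malonate to them, and BAN, which diverts anthocyanidins to proanthocyanidins, all rose at 3.5 and 8 HAP, DFR and AT5MAT from background level. At 8 HAP DFR was higher by a log2 difference of 2.82, AT5MAT by 3.67 and BAN by 2.15. In ovules BAN (log2 3.02) and DFR (log2 1.94) were higher than in unpollinated pistils, while AT5MAT had a log2 difference of -0.13. UF3GT, which the gene table also calls UGT79B1 but whose symbol left it outside the rule, was described after its values were seen: it read 123 and 141 in unpollinated pistils, 421 and 395 after 0.5 hours, 933 and 1031 after 3.5 hours, 3767 and 3449 after 8 hours, and 134 and 124 in ovules (log2 -0.02, not called).

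Cinnamic acids are esterified with glucose by the UGT84A enzymes, and 3 of the 4 listed were measured. UGT84A1 (AT4G15480) read 176 and 180.4 in unpollinated pistils, 204 and 203 after 0.5 hours, 196 and 189.9 after 3.5 hours, 509 and 458 after 8 hours, and 352 and 305 in ovules. It was nearly level until 3.5 HAP and then stepped up. The rise was 2.57-fold over unpollinated pistils (log2 1.36, SE 0.092, adjusted p = 8.08e-07) and 2.38-fold over 3.5 HAP (adjusted p = 1.36e-05), and ovules were 1.77-fold higher than unpollinated pistils (adjusted p = 1.79e-05). Beside these rises, BAN and INO, the 2 measured of 5 integument markers, had a summed intensity of 967 and 827 in unpollinated pistils, 1934 and 1876 after 8 hours and 4235 and 4845 in ovules, while INO taken alone had a log2 difference of -0.36 at 8 HAP. Whether the amount of integument RNA bears on UGT84A1 was not tested.

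UGT84A3 (AT4G15490), next to UGT84A1 in the gene table, went down first and then returned. Its arrays read 472 and 529 in unpollinated pistils, 328 and 325 after 0.5 hours, 468 and 492 after 3.5 hours, 413 and 403 after 8 hours, and 149 and 139 in ovules. It fell 1.5-fold at 0.5 HAP (log2 -0.59, SE 0.087, adjusted p = 0.000491), rose 1.45-fold from 0.5 to 3.5 HAP (adjusted p = 0.00257), and in ovules was 3.23-fold lower than in unpollinated pistils (adjusted p = 3.00e-08). Its smaller 8 HAP difference (1.22-fold lower, adjusted p = 0.0241) was lost without unpollinated replicate 2, without either 8 HAP array, with reference gene centring (adjusted p = 0.305) and with these groups alone in the fit.

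UGT84A4 (AT4G15500), the next gene along, read 218 and 287 in unpollinated pistils, 357 and 323 after 0.5 hours, 197 and 213 after 3.5 hours, and 251 and 356 after 8 hours. Its replicates lay far apart in unpollinated pistils and at 8 HAP (SD of the intensities 49.0 and 73.9). It missed the threshold at all times against unpollinated pistils, but fell 1.61-fold from 0.5 to 3.5 HAP (adjusted p = 0.015) and rose 1.43-fold from 3.5 to 8 HAP (adjusted p = 0.029). The fall was lost when any 1 of its 4 arrays was left out (adjusted p = 0.0612 to 0.128), and the rise without either 3.5 HAP array or 8 HAP replicate 2 (adjusted p = 0.0832 to 0.269). In the phenylpropanoid list 5 of 23 genes were measured. REF1, which makes sinapate and ferulate from their aldehydes, rose at all 3 times (log2 0.36, 0.60 and 0.33), as did CCR2, a cinnamoyl-CoA reductase, from background level (log2 0.46, 1.60 and 0.78). HCT, a hydroxycinnamoyl transferase, had log2 differences of 0.01 at each time and was not called.

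Monolignols, the units of lignin, are glucosylated by the UGT72E enzymes. UGT72E3 (AT5G26310) read 281 and 367 in unpollinated pistils, 209 and 194 after 0.5 hours, 225 and 178 after 3.5 hours, 239 and 204 after 8 hours, and 361 and 395 in ovules. All pollinated arrays lay below both unpollinated arrays. The fall was 1.55-fold at 0.5 HAP (log2 -0.63, SE 0.138, adjusted p = 0.00548), 1.56-fold at 3.5 HAP (adjusted p = 0.00512) and 1.42-fold at 8 HAP (adjusted p = 0.0133). The 3.5 HAP call was lost without 3.5 HAP replicate 2 (adjusted p = 0.062), and the 8 HAP call when unpollinated replicate 2, 8 HAP replicate 2 or the deposited scaling was dropped (adjusted p = 0.0959, 0.12 and 0.0581, the last with reference gene centring). UGT72E2, its close relative, had log2 differences between -0.16 and -0.06, and UGT72E1, which acts on the aldehydes, stayed at background level. Of the monolignol glucosidases, which release the sugar again, BGLU45 fell at 0.5 HAP (log2 -0.56) and 8 HAP (log2 -0.77) and BGLU46 at 8 HAP (log2 -0.55).

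**Figure D3:**
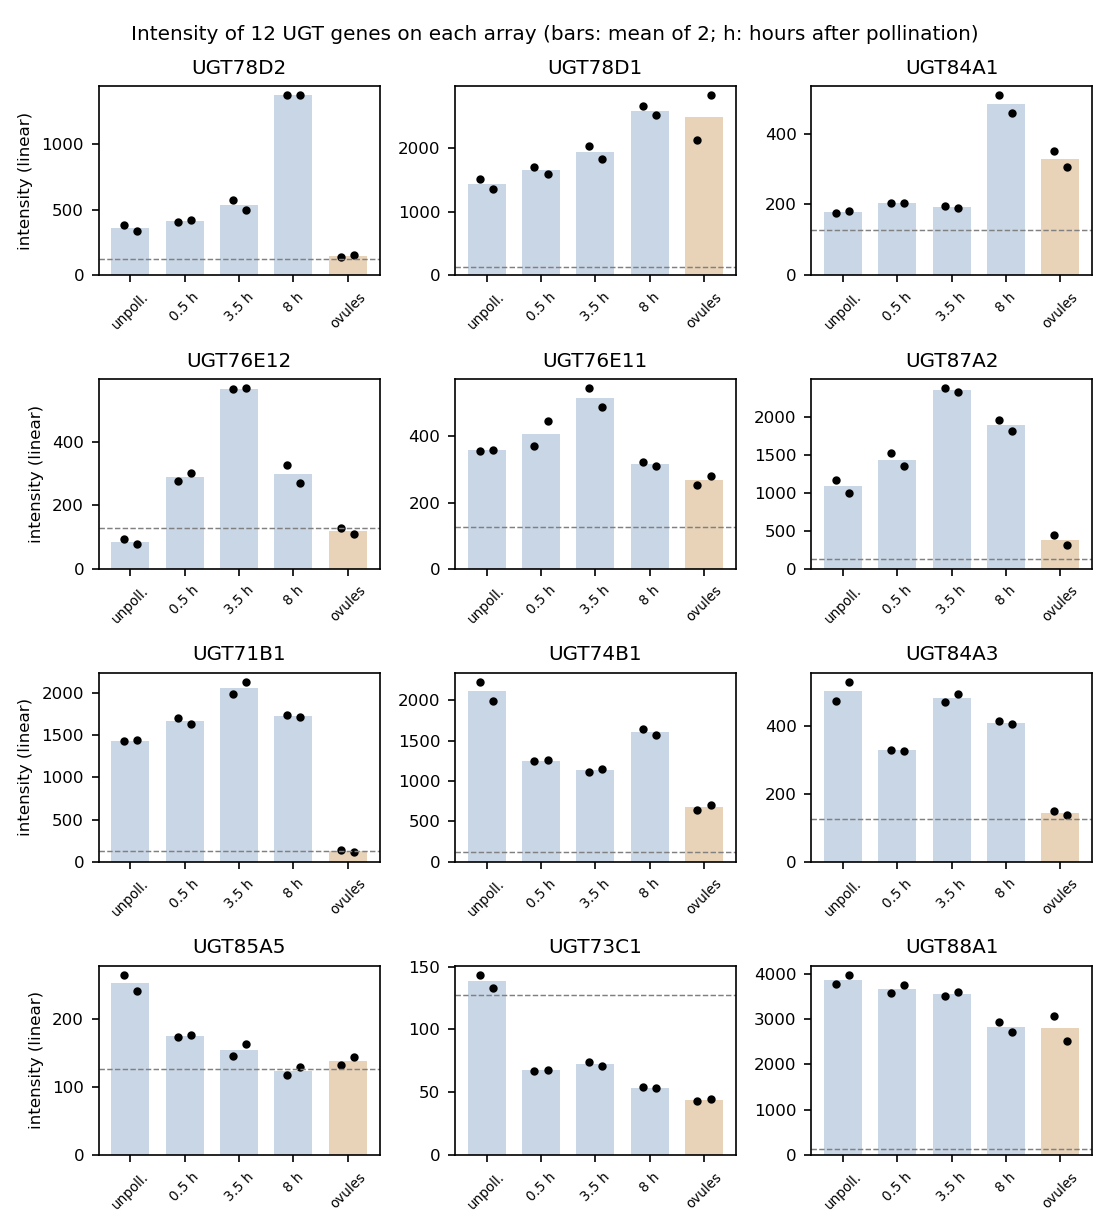
Panels show 12 UGT genes, with the linear intensity of each array as a point and the mean of 2 arrays as a bar, for 4 pistil groups (blue) and ovules (tan); the dashed line is the background level of 127.2. UGT78D2 and UGT84A1 step up at 8 HAP, UGT76E12, UGT76E11, UGT87A2 and UGT71B1 are highest at 3.5 HAP, and UGT74B1 is lowest among pistils at 3.5 HAP.

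The steepest early rise was that of UGT76E12 (AT3G46660), of the UGT76E subfamily, to which the jasmonate-glucosylating UGT76E1 and UGT76E2 also belong. Its arrays read 92.7 and 76.5 in unpollinated pistils, 276 and 301 after 0.5 hours, 568 and 569.8 after 3.5 hours, 328 and 271 after 8 hours, and 127 and 109 in ovules. The arrays went from background level to their highest at 3.5 HAP and back part of the way, with 0.5 and 8 HAP overlapping. UGT76E12 rose 3.04-fold at 0.5 HAP (log2 1.60, SE 0.116, adjusted p = 2.72e-06), 5.83-fold at 3.5 HAP (log2 2.54, adjusted p = 4.29e-08) and 3.13-fold at 8 HAP (adjusted p = 1.10e-06), all against a mean at background level. Between times it rose 1.92-fold from 0.5 to 3.5 HAP (adjusted p = 0.000453) and fell 1.86-fold from 3.5 to 8 HAP (adjusted p = 0.000324).

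UGT76E11 (AT3G46670), 1 gene further along, had its highest mean at the same time. It read 357 and 358 in unpollinated pistils, 371 and 445 after 0.5 hours, 546 and 488 after 3.5 hours, 323 and 310.1 after 8 hours, and 254 and 280.0 in ovules. It rose 1.42-fold at 3.5 HAP (log2 0.51, SE 0.104, adjusted p = 0.00364) and fell 1.60-fold from 3.5 to 8 HAP (adjusted p = 0.000832). UGT76E1 and UGT76E2 stayed at background level, with pistil log2 differences against unpollinated pistils between -0.23 and 0.21, none of them called.

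UGT87A2 (AT2G30140), known for its influence on flowering time in leaves, also had its highest mean at 3.5 HAP. The arrays read 1169 and 999 in unpollinated pistils, 1517 and 1356 after 0.5 hours, 2375 and 2321 after 3.5 hours, 1958 and 1817 after 8 hours, and 437 and 309.8 in ovules. The 4 pistil groups did not overlap, and ovules lay far below them. For UGT87A2 the step from 3.5 to 8 HAP was not called. It rose 2.16-fold at 3.5 HAP (log2 1.11, SE 0.139, adjusted p = 0.000142) and 1.73-fold at 8 HAP (adjusted p = 0.000991). The 0.5 HAP call (1.32-fold, adjusted p = 0.0478) was lost without any 1 of the pistil arrays except unpollinated replicate 1 (adjusted p = 0.0687 to 0.253), with a pseudocount of 1 and without the intensity trend. The step from 0.5 to 3.5 HAP was 1.63-fold (adjusted p = 0.00693), and was lost without 0.5 HAP replicate 2 or 3.5 HAP replicate 1 (adjusted p = 0.0731 and 0.0557).

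UGT71B1 (AT3G21750) read 1427 and 1444 in unpollinated pistils, 1703 and 1630.3 after 0.5 hours, 1982 and 2134 after 3.5 hours, 1739.9 and 1713 after 8 hours, and 141 and 117 in ovules. It rose 1.43-fold at 3.5 HAP (log2 0.51, SE 0.093, adjusted p = 0.00179). Its 8 HAP call (1.2-fold, adjusted p = 0.0434) was lost under 12 of 19 alternatives (adjusted p = 0.0503 to 0.162), among them the loss of any 1 pistil array. Its ovule arrays, at the edge of background level, lay far below all pistil arrays.

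Glucosinolates, the sulfur-rich defence compounds of the cabbage family, get their glucose from UGT74B1 (AT1G24100). Its arrays read 2233 and 1995 in unpollinated pistils, 1245 and 1257 after 0.5 hours, 1116 and 1151 after 3.5 hours, 1643 and 1571 after 8 hours, and 641 and 709.9 in ovules. The level dropped early and recovered in part. UGT74B1 fell 1.68-fold at 0.5 HAP (log2 -0.75, SE 0.087, adjusted p = 8.91e-05), 1.85-fold at 3.5 HAP (adjusted p = 2.14e-05) and 1.31-fold at 8 HAP (adjusted p = 0.00433, or adjusted p = 0.0629 with reference gene centring). From 3.5 to 8 HAP it rose 1.41-fold (adjusted p = 0.0017). UGT74C1, the other listed enzyme of this role, was not measured under a UGT symbol.

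UGT73C1 (AT2G36750), of a subfamily that includes brassinosteroid and flavonol enzymes and itself in none of the role lists used here, sank to background level after pollination. It read 143 and 133 in unpollinated pistils, 67.0 and 67.8 after 0.5 hours, 74.4 and 70.8 after 3.5 hours, 54.1 and 53.4 after 8 hours, and 43.1 and 44.7 in ovules. Replicates differed by little, and the difference of 2.21-fold at 8 HAP was the largest fall of the 47 genes in the pistil comparisons (log2 -1.14, SE 0.081, adjusted p = 1.09e-06). Its neighbour UGT73C2 was at background level on all arrays, with group means of 18.4 to 23.2.

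Of 4 consecutive UGT85A genes in the gene table, UGT85A5 (AT1G22370) had the largest differences in the pistil. It read 266 and 242 in unpollinated pistils, 174 and 177 after 0.5 hours, 146 and 163 after 3.5 hours, 118 and 129 after 8 hours, and 133 and 145 in ovules. Each time point lay below the one before with no overlap, but the step from 0.5 to 3.5 HAP was not called. The step from 3.5 to 8 HAP (1.22-fold lower, adjusted p = 0.033) was lost with reference gene centring (adjusted p = 0.0744). The call was also lost without 3.5 HAP replicate 2 and without either array of 0.5 or of 8 HAP. The log2 difference of -0.29 was -0.22 without 3.5 HAP replicate 2, -0.23 without 8 HAP replicate 1 and -0.35 without 8 HAP replicate 2. Against unpollinated pistils UGT85A5 fell 1.41-fold at 0.5 HAP (log2 -0.49, SE 0.092, adjusted p = 0.00219), 1.58-fold at 3.5 HAP (adjusted p = 0.000297) and 1.94-fold at 8 HAP (adjusted p = 1.37e-05), where its mean of 123 was at background level.

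UGT85A2 (AT1G22360) read 277 and 291 in unpollinated pistils, 308 and 291 after 0.5 hours, 225 and 241 after 3.5 hours, 249.9 and 239 after 8 hours, and 82.3 and 73.0 in ovules. It fell 1.21-fold at 3.5 HAP (adjusted p = 0.036), a call lost under 10 of 19 alternatives, among them the loss of any 1 pistil array other than unpollinated replicate 1 (adjusted p = 0.0549 to 0.185). UGT85A3 fell within the background level at 3.5 HAP (log2 -0.41) and 8 HAP (log2 -0.49). UGT85A7 missed the threshold against unpollinated pistils at each time and rose from 3.5 to 8 HAP (log2 0.37, adjusted p = 0.0369).

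**Figure D4:**
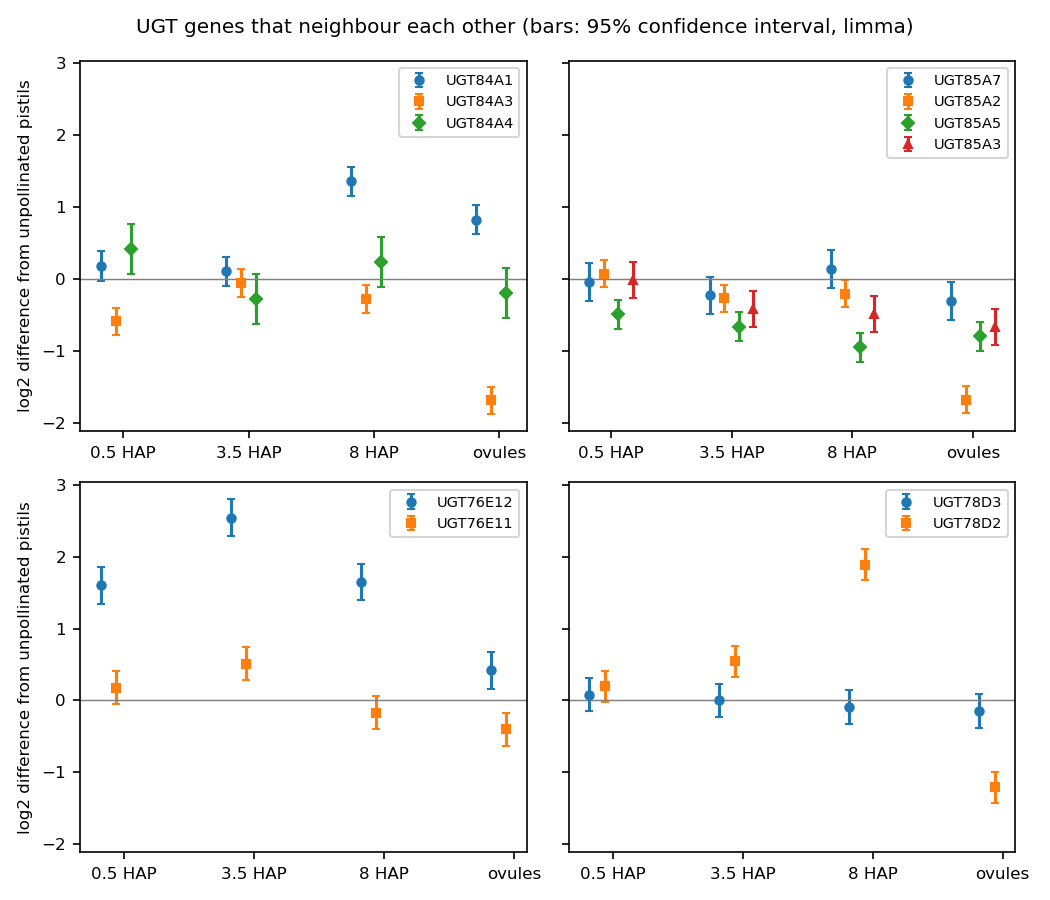
Points give the log2 difference from unpollinated pistils and bars its 95% confidence interval, for 4 sets of UGT genes that lie next to or near each other in the gene table. UGT84A1 is higher at 8 HAP and in ovules where UGT84A3 is lower, UGT76E12 and UGT76E11 are both highest at 3.5 HAP, and UGT78D3 stays near 0 while UGT78D2 moves; differences between neighbours were not tested.

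Of the 47 genes 31 lay within 5 genes of another member in the gene table, in 13 groups, and 16 lay apart. UGT73B4 and UGT73B5, neighbours that respond to pathogens and oxidative stress, both rose at 8 HAP within the background level (log2 0.37 and 0.53). UGT71C5, whose enzyme glucosylates abscisic acid, fell 1.32-fold at 8 HAP (305 and 329 against 247 and 227; adjusted p = 0.0141), a call lost without unpollinated replicate 2, without 8 HAP replicate 2 and with reference gene centring (adjusted p = 0.0614, 0.109 and 0.124). Its neighbour UGT71C4 had an 8 HAP log2 difference of 0.07 (95% interval -0.13 to 0.28). All member probe sets carry the suffix given to probe sets designed to match a single gene, but cross-hybridisation among these related genes was not tested.

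Of the cytokinin list 2 of 3 genes were measured, and members outside that list were not assessed for this role. The 2 genes, UGT76C1 and UGT76C2, stayed at background level, with 8 HAP log2 differences of 0.20 (95% interval -0.03 to 0.42 for each). Of the auxin list 3 of 6 were measured: UGT84B2 fell within the background level at 8 HAP (log2 -0.28, adjusted p = 0.0345), and UGT84B1 and UGT74D1 had differences of -0.10 and -0.16. IAGLU, an indole-3-acetate glucosyltransferase outside the rule and singled out after its values were seen, rose from 524 and 589 in unpollinated pistils to 1541 and 1612 at 3.5 HAP (log2 1.48) and read 1084 and 1031 at 8 HAP. Of the other genes outside the rule that were looked at, GT72B1 fell at 0.5 HAP (log2 -0.54, adjusted p = 0.00227) and 8 HAP (log2 -0.29, adjusted p = 0.0411), SGT and AT5G54010 were called at no time, and AT4G14090, listed by its locus alone, rose from background level to 1765 and 1495 at 8 HAP. In the abscisic acid list UGT71B6 rose at 3.5 HAP within the background level (log2 0.40) and UGT71B8 was at background level throughout.

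Of the salicylate list 3 of 4 genes were measured. UGT76B1, which glucosylates salicylic, isoleucic and N-hydroxypipecolic acid, read 32.8 and 40.1 in unpollinated pistils, 38.5 and 55.0 after 0.5 hours, 69.1 and 96.2 after 3.5 hours, and 119.8 and 96.7 after 8 hours. It rose at 3.5 HAP (log2 0.90, adjusted p = 0.00195) and 8 HAP (log2 1.24, adjusted p = 0.000155), although all group means lay within the background level, so the size is uncertain. UGT74F1, a salicylic acid glucosyltransferase, read between 129 and 149 on the 8 pistil arrays, with an 8 HAP log2 difference of -0.04 (95% interval -0.22 to 0.15). UGT71C3, which acts on methyl salicylate, stayed at background level.

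Among brighter genes without a role in these lists, UGT88A1 (AT3G16520) read 3768 and 3977 in unpollinated pistils, 3584 and 3748 after 0.5 hours, 3510.4 and 3593 after 3.5 hours, and 2927 and 2717 after 8 hours. Both 8 HAP arrays lay below the other 6 pistil arrays. It fell 1.37-fold at 8 HAP against unpollinated pistils (log2 -0.45, SE 0.090, adjusted p = 0.00222). UGT73B1 (AT4G34138) fell at 3.5 HAP, with 167 and 146 against 284 and 251 in unpollinated pistils (1.64-fold, adjusted p = 0.00113) and 244 and 204 at 8 HAP. UGT80B1, whose sterol glucosides matter in the seed coat, and UGT71C4 were above background on all arrays and called in no comparison. Of the dimmer genes not yet described, UGT72B3 fell within the background level at 8 HAP (log2 -0.43), UGT71B5 rose within it from 3.5 to 8 HAP (log2 0.36), and UGT73C7, UGT73D1 and UGT76D1 had group means of 46.3 to 124 and were called in no comparison of 2 groups. The genes not called lay between -0.30 and 0.42 on the log2 scale at 0.5 HAP (39 genes), between -0.27 and 0.25 at 3.5 HAP (31 genes) and between -0.24 and 0.24 at 8 HAP (28 genes).

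Steps between pollinated times set no value against the unpollinated arrays. From 0.5 to 3.5 HAP 9 UGT genes changed (19.1%, beside 14.2% of all probe sets), 5 up and 4 down (5.19% and 9% of all), or 10 up and 3 down after quantile normalization. The count was 15 with these groups alone in the fit or without either unpollinated array, which enters the estimate of the spread, and 3 or 4 without any 1 of the 4 arrays compared. From 3.5 to 8 HAP 18 changed (38.3%, beside 31.4%), 10 up and 8 down (18.9% and 12.4%). This split was 7 up and 14 down after quantile normalization and 11 up and 5 down with reference gene centring, and the count was 7 without 8 HAP replicate 2, 11 without 8 HAP replicate 1 and 9 without either 3.5 HAP array. From 0.5 to 8 HAP 14 changed (29.8%, beside 21.6%), 7 up and 7 down (10.9% and 10.7%), or 8 up and 5 down with reference gene centring, and between 5 and 7 were called without any 1 of those 4 arrays. Among genes called and above background level the largest rises from 0.5 to 8 HAP were those of UGT78D2, UGT84A1, UGT78D1 and UGT74B1, at 3.23-fold, 2.27-fold, 1.56-fold and 1.28-fold, the last missing the threshold once any 1 array of the 4 was left out (adjusted p = 0.0555 to 0.102).

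Ovules against the whole unpollinated pistil gave 23 changed UGT genes (48.9%, beside 51.6% of all probe sets), 5 higher and 18 lower. For 2 of the higher and 5 of the lower genes both means were at background level. Over all probe sets 29.6% were higher and 22% lower, and the median log2 difference was 0.04, against -0.14 for the 47 genes. With reference gene centring the split was 2 higher and 32 lower, and that scaling moved the median of all probe sets to -0.201. Falls of at least 2-fold numbered 7 of 47 (7.13% of all probe sets) and rises of that size 0 (3.42%). Ovules are part of the pistil, so a part is set against its whole here. Of the markers, both measured integument genes and all 3 measured embryo sac genes of 6 listed were higher in ovules. Of 6 measured stigma, style and transmitting tract genes of 9 listed, 4 were lower and 1, ARPN, was higher (log2 1.03). The summed intensity of that list was 4054 and 4152 in ovules against 4469 and 4048 in unpollinated pistils. The part of these tissues in the UGT differences was not tested.

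UGT71B1 had the largest difference of the 47 genes in ovules, at 141 and 117 against 1427 and 1444 in unpollinated pistils, 10.0-fold lower (log2 -3.33, SE 0.093, adjusted p = 3.65e-10) and with 1 of its ovule arrays at background level. UGT85A2 (3.21-fold, adjusted p = 3.04e-08), UGT74B1 (3.08-fold, adjusted p = 4.04e-08), UGT87A2 (2.85-fold, adjusted p = 3.44e-06) and UGT73C1 (2.57-fold) were lower too, as were UGT84A3 and UGT78D2, and UGT85A2 and UGT73C1 were at background level in ovules. UGT74D1, which glucosylates auxin and its oxidised form, was 1.96-fold lower, at 57.1 and 63.99 in ovules against 164 and 108 in unpollinated pistils, both ovule arrays and 1 unpollinated array at background level. UGT84A1 (1.77-fold), UGT78D1 (1.71-fold) and UGT71C2 (1.2-fold, adjusted p = 0.0216) were higher in ovules; the UGT71C2 call was lost without ovule replicate 1 or 2, without unpollinated replicate 1 (adjusted p = 0.0619 to 0.0839), with these groups alone in the fit and with reference gene centring (adjusted p = 0.977). UGT71C2 was the 1 gene of the 14 in group E that was higher in ovules. There 5 of its group were lower, UGT71C1 and UGT72B3 among them within the background level. In group G 4 of 5 genes were lower in ovules, UGT85A3 among them within the background level. The fifth, UGT85A7, had a log2 difference of -0.30. Beside these counts, 29.6% of all probe sets were higher in ovules and 22% lower.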

How the data were processed

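RNA was amplified in 2 rounds by transcription in vitro, labelled with biotin and measured on 10 arrays of 1 colour, per the labels' protocols. The deposited table gives linear intensity for 22810 probe sets. MAS5 appears in the submitters' processing notes, its version and role not given; genome build and scaling method are not given in the sources used here. Array medians lay between 251.5 and 272.2. Probe sets were named through the platform annotation, and loci and gene order through the gene table (TAIR10.1), in which all 47 members matched; no coordinates or sequences were used. The 64 control probe sets and 1 without values were left out.

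No filter was applied before log2(value + 16) was taken. One model held all 5 groups (limma 3.58.1, R 4.3.3) and moderated variances along the mean intensity; its degrees of freedom were 5 residual and 6.106 prior, and Benjamini-Hochberg adjustment covered all 22745 probe sets. For the background level, the 95th percentile over 27 bacterial controls was averaged over arrays. The script was tested on simulated data. The labels describe pistils pooled for each replicate but not separate growth, so p-values measure the spread between these pools, and 2 arrays a group limit the precision. The labels' description codes share a letter between 0.5 and 3.5 HAP and between 8 HAP and unpollinated pistils, with no meaning stated; as a batch it cannot be told apart from those groups. Scaling, pseudocount, dim probe sets, trend, replicate block, the groups fitted and single arrays were varied. The members and gene lists were chosen with earlier results of these data known. Genes were named by rank: up to 8 rises and 8 falls per comparison with unpollinated pistils and 5 and 5 per step, past the threshold, with groups apart and the higher mean above background, plus members of the role lists and up to 4 genes of each pathway list. In the phenylpropanoid list all 5 measured genes were named, past that limit of 4, REF1 being the gene beyond it. The lists of UDP-sugar supply (17 genes) and cytokinin oxidases (7) had 0 genes measured under a name. Figures were drawn with matplotlib 3.10.9 in Python 3.11.15.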

Additional observations from a re-analysis of the deposited data

How the results depend on the processing

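The 69 results for named genes were recomputed under 19 alternatives or as many as applied, giving 1300 values: 1187 kept their direction and side of the threshold, 113 in 26 results kept their direction but missed it, and 0 turned. Calls of UGT76E12, UGT73C1 and UGT85A5 at the 3 times, of UGT78D2 and UGT84A1 at 8 HAP, of UGT74B1 at 0.5 and 3.5 HAP and of UGT87A2 at 3.5 and 8 HAP against unpollinated pistils were past the threshold under each alternative run.

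Centring arrays on 4 reference genes gave 16 changed UGT genes at 0.5 HAP in place of 8 (34.0%, beside 32.1% of all probe sets), and 34 in ovules in place of 23, with the shifts of direction given beside those counts. With the dimmest 40% of probe sets left out, 17 members were tested, and 5 were called at 0.5 HAP, 10 at 3.5 HAP, 11 at 8 HAP, 10 from 3.5 to 8 HAP, 9 from 0.5 to 8 HAP, 12 in ovules and 15 by the F test; fewer genes were tested there. Fitting only the groups compared gave 15 from 0.5 to 3.5 HAP in place of 9. Without 1 array at a time the counts ran from 6 to 11 at 0.5 HAP, 11 to 16 at 3.5 HAP, 13 to 20 at 8 HAP, 3 to 15 from 0.5 to 3.5 HAP, 7 to 23 from 3.5 to 8 HAP, 5 to 17 from 0.5 to 8 HAP, 20 to 23 in ovules and 19 to 27 by the F test. Same-numbered replicates deviated with correlations of -0.323 to 0.105 over 10 pairs of groups, so the numbers were not taken to pair samples. With the replicate number as a block the counts were 8, 14 and 18 at the 3 times, 8, 16 and 13 for the steps, 23 in ovules and 24 by the F test.

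The 22 genes at background level in all groups have no measured level of their own, and falls into that level are of uncertain size. The method of scaling is unknown.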
